A study of Mus musculus with 6 samples.

Results

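The macrophage marker genes of the neonatal mouse testis comprised 10 genes, chosen by gene symbol: *Adgre1*, *Csf1r*, *Cx3cr1*, *Mrc1*, *Cd14*, *Fcgr3*, *Cd68*, *Lyz2*, *C1qa* and *C1qb*. All 10 were found among the 54532 genes of the table, and all 10 passed the filter of a mean of at least 0.5 FPKM (fragments scaled to gene length and library depth) that left 16206 genes for testing. The values came from polyadenylated RNA of whole testes at 5 days postpartum (dpp), from 3 control (Ctrl) and 3 conditional knockout (cKO) samples. In the cKO mice (*Vasa*-Cre *Srsf1* Fl/del), a Cre recombinase under the germ-cell *Vasa* (*Ddx4*) promoter removed exons of *Srsf1*, which encodes a splicing factor, so the deletion was not directed at macrophages. The genotype behind the Ctrl label was not given in the sources used here. Values below are in the order of replicates 1, 2 and 3 of each group. The question was whether macrophage transcripts were more abundant in testes in which germ-cell transcripts were reduced. Whole testes mix the RNA of all their cells, so more or fewer macrophages and more or less of a transcript per macrophage cannot be told apart.

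Macrophages are phagocytes that live in most tissues. They engulf dying cells, sample their surroundings through receptors for complement, antibodies and bacterial products, and depend for survival on signalling through the CSF1 receptor. In the mouse testis they are the most abundant immune cells and lie in the interstitium beside Leydig cells and on the surface of the tubules. Those in the interstitium and those on the tubules are usually told apart by a high level of the CSF1 receptor in the first and of MHC class II in the second.

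Several features of the libraries bear on the macrophage genes. Depth ran from 15448191 to 18964743 reads recovered from the FPKM values, and 3 reads on a gene of 1 kb corresponded to between 0.158 and 0.194 FPKM. *Srsf1* measured 82.1, 89.1 and 88.4 FPKM in the Ctrl samples and 45.1, 46.3 and 51.6 FPKM in the cKO samples, which sets the labelled groups apart (log2 fold change −0.85, limma adjusted p = 0.058). Of 15 tested germ-cell markers, 13 were lower in all cKO samples than in all Ctrl samples, with a median log2 fold change of −1.52 (−1.06 without Ctrl 2). Ctrl 2 stood apart with a mean germ-cell marker level of 164% of the Ctrl mean, against 71.4% in Ctrl 1 and 64.3% in Ctrl 3. The extraction text of the labels names retinas, whereas the labelled tissue is testis. The photoreceptor regulators *Crx* and *Nrl* were at 0 in all 6 samples, and the highest value of any retina marker was 0.311 FPKM. Replicates are given as separate biological samples in the study's methods, without naming the animals, so p-values measure the spread between these samples.

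No difference beyond the spread of the replicates was detected for the macrophage marker genes. In limma on log2(FPKM + 1), 0 of the 10 genes passed an adjusted p of 0.05 in either direction, where 0% of all 16206 genes passed in either direction. The smallest adjusted p of any gene in that fit was 0.058, so this count does not set the 10 genes apart from other genes. At an unadjusted p under 0.05 the count was again 0 of 10, against 6.6% of all tested genes higher and 9.31% lower in cKO testes. Limma voom on the recovered reads also called 0 of 10 genes, with 0.136% of all genes called higher and 0.376% called lower, and 1 gene, *Lyz2*, was at an unadjusted p under 0.05 there (7.1% of all genes were so higher and 9.9% lower). The same limma test gave 0 of 10 calls among protein-coding genes alone (0.28% of 13204 genes called higher, 1.33% lower) and with the replicate number as a block (0.0864% higher, 0.518% lower). The Ctrl and cKO values overlapped for all 10 genes, whereas 23.1% of all tested genes did not overlap (10.3% higher and 12.8% lower in cKO testes). The log2 fold change was above 0 for 8 genes and below 0 for 2, *Csf1r* and *Mrc1*, and 50.5% of all tested genes were above 0. The median of the 10 genes was 0.05, beside 0.0027 for all tested genes.

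**Figure D1:**
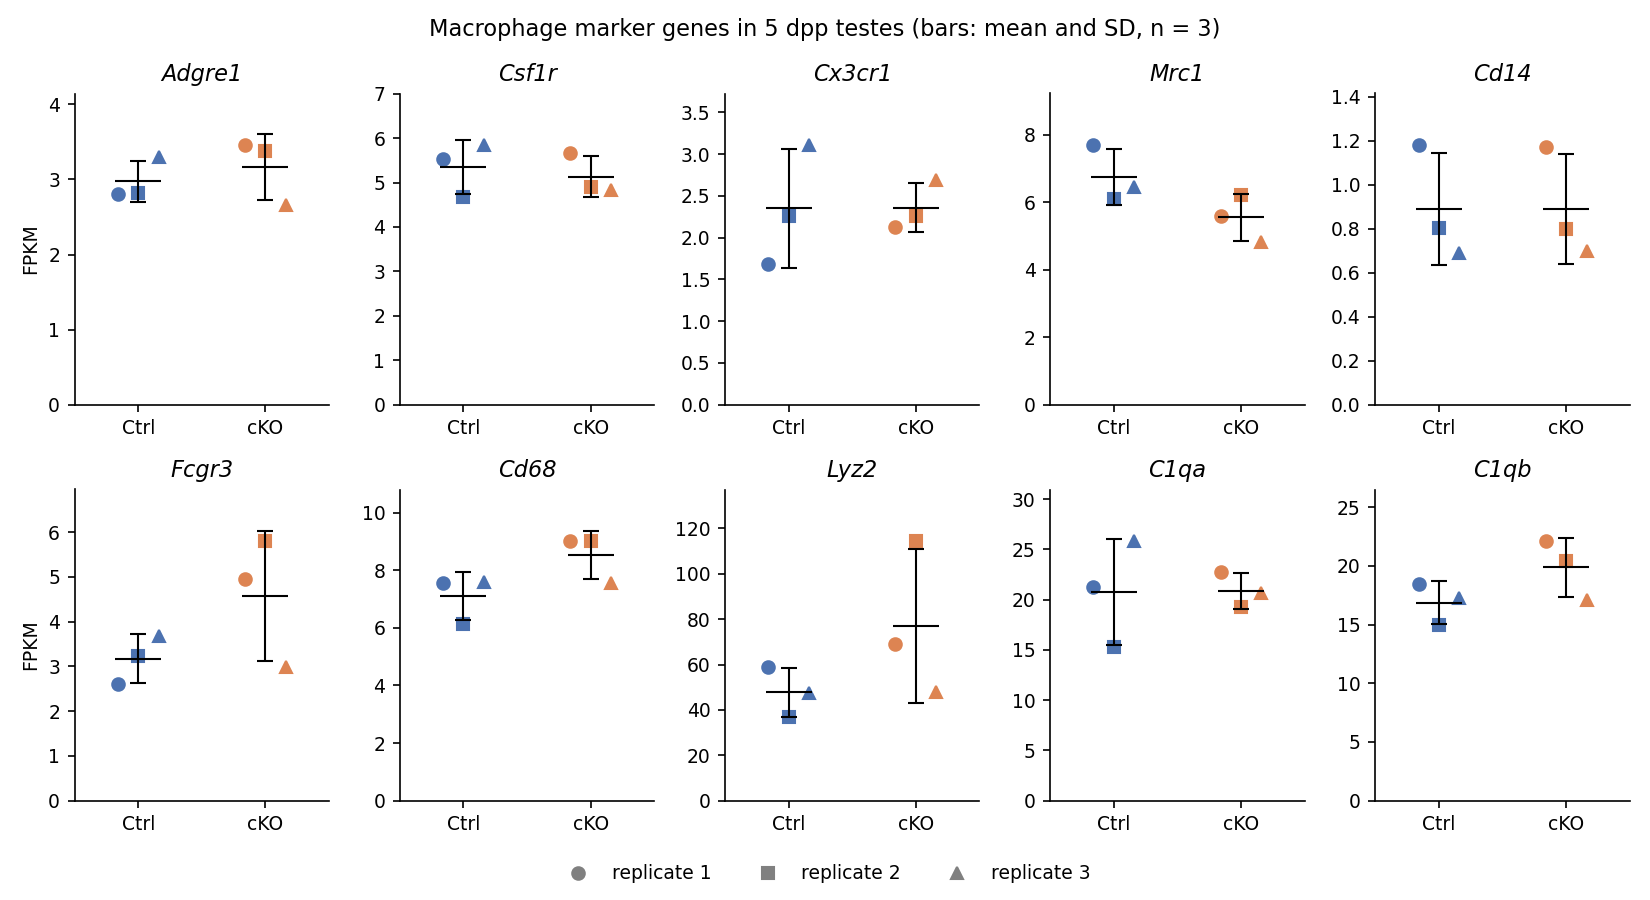
FPKM of the 10 macrophage marker genes in each testis sample, by group. Points are samples, shaped by replicate number, and black bars give the mean and SD (n = 3). The 2 groups overlap in every panel, and the widest spread is that of Lyz2 in cKO testes, from 48.0 to 114 FPKM.

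The receptors that define the macrophage surface were examined first. *Adgre1* (ENSMUSG00000004730; chromosome 17, 57358691 to 57483527, + strand, GRCm38) encodes F4/80, the surface protein most used to recognise mouse macrophages. *Adgre1* measured 2.80, 2.82 and 3.30 FPKM in the Ctrl samples and 3.45, 3.38 and 2.66 FPKM in the cKO samples. The lowest of the 6 values was cKO 3 and the highest was cKO 1, so both extremes lay within the cKO group. The Ctrl mean was 2.97 ± 0.278 and the cKO mean 3.17 ± 0.440 FPKM (SD over 3 samples each). The log2 fold change was 0.06 (95% interval −0.21 to 0.34, limma adjusted p = 0.823).

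*Csf1r* (ENSMUSG00000024621; chromosome 18, 61105572 to 61132149, + strand) encodes the receptor for CSF1 and IL-34, on which tissue macrophages depend. *Csf1r* measured 5.53, 4.67 and 5.84 FPKM in the Ctrl samples and 5.66, 4.90 and 4.82 FPKM in the cKO samples. Ctrl 2 was the lowest sample and Ctrl 3 the highest, so the cKO values lay inside the Ctrl range. The log2 fold change was −0.05 (95% interval −0.30 to 0.21, limma adjusted p = 0.864). On the scale of reads, the fold was 0.965 with a 95% interval of 0.786 to 1.18. In GENCODE mouse release M21, the exons of *Csf1r* overlap those of *Hmgxb3* on the other strand over 15.1% of their bases. The deposited *Csf1r* had other ends and a length of 4885 bases, against 5774 exonic bases in that release. Whether the counted gene held the overlap is therefore not known. The strand setting of the counting was not given in the sources used here, so reads of *Hmgxb3* may be included.

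*Cx3cr1* (ENSMUSG00000052336; chromosome 9, 119901616 to 120069879, − strand) encodes the receptor for the chemokine fractalkine. *Cx3cr1* measured 1.69, 2.26 and 3.10 FPKM in the Ctrl samples and 2.13, 2.26 and 2.69 FPKM in the cKO samples. The cKO values again lay inside the Ctrl range, and Ctrl 1 and Ctrl 3 were the lowest and highest of the 6. The group means were 2.35 ± 0.713 and 2.36 ± 0.291 FPKM (SD, n = 3 each), with a log2 fold change of 0.02 (95% interval −0.38 to 0.42, limma adjusted p = 0.965).

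*Mrc1* (ENSMUSG00000026712; chromosome 2, 14229392 to 14332057, + strand) encodes the mannose receptor CD206, an endocytic receptor of tissue-resident macrophages. *Mrc1* measured 7.69, 6.10 and 6.44 FPKM in the Ctrl samples and 5.60, 6.23 and 4.83 FPKM in the cKO samples. Ctrl 1 was the highest sample and cKO 3 the lowest, and only cKO 2 exceeded a Ctrl sample. Of the 10 genes, *Mrc1* had the most negative log2 fold change, −0.24 (95% interval −0.53 to 0.04, unadjusted p = 0.085, limma adjusted p = 0.387). The mean level in cKO testes was 82.3% of the Ctrl mean, on 475 to 793 reads per sample.

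The receptors for bacterial products and antibodies followed. *Cd14* (ENSMUSG00000051439; chromosome 18, 36725074 to 36726736, − strand) encodes the co-receptor that presents lipopolysaccharide to TLR4. *Cd14* measured 1.18, 0.802 and 0.690 FPKM in the Ctrl samples and 1.17, 0.800 and 0.700 FPKM in the cKO samples. It was the least abundant of the 10 genes, with 17 to 30 reads per sample, at which counting alone gives an error of up to 24.3%. The log2 fold change was 0.00 (95% interval −0.38 to 0.38, limma adjusted p = 0.999), and the fold from the reads was 1.01 with an interval of 0.569 to 1.79. A fold anywhere within that interval remains compatible with these data.

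*Fcgr3* (ENSMUSG00000059498; chromosome 1, 171051174 to 171064935, − strand) encodes an activating receptor for IgG. *Fcgr3* measured 2.60, 3.24 and 3.68 FPKM in the Ctrl samples and 4.94, 5.79 and 2.98 FPKM in the cKO samples. cKO 1 and cKO 2 were above all Ctrl samples, and cKO 3 lay between Ctrl 1 and Ctrl 2. The Ctrl mean was 3.17 ± 0.544 and the cKO mean 4.57 ± 1.44 FPKM (SD over 3 samples each). The log2 fold change of 0.39 (95% interval −0.10 to 0.88) was not past the threshold (limma adjusted p = 0.412). *Fcgr3* shared 9.58% of its 50-base stretches with *Fcgr2b*, an inhibitory IgG receptor at 0.329 to 0.714 FPKM. How many reads could not be told apart between the 2 genes was not tested.

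Lysosomal proteins are a second hallmark of macrophages. *Cd68* (ENSMUSG00000018774; chromosome 11, 69664213 to 69666153, − strand) encodes a lysosomal membrane glycoprotein. *Cd68* measured 7.57, 6.14 and 7.58 FPKM in the Ctrl samples and 9.0, 9.0 and 7.57 FPKM in the cKO samples. cKO 1 and cKO 2 were above the Ctrl range, and cKO 3 was at the level of Ctrl 1 and Ctrl 3. The Ctrl mean was 7.10 ± 0.826 and the cKO mean 8.52 ± 0.827 FPKM (SD over 3 samples each), with a log2 fold change of 0.24 (95% interval −0.03 to 0.50, unadjusted p = 0.075, limma adjusted p = 0.366).

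*Lyz2* (ENSMUSG00000069516; chromosome 10, 117277331 to 117282321, − strand) encodes lysozyme M, an enzyme that cleaves bacterial cell walls and is also made by neutrophils. *Lyz2* measured 58.8, 37.0 and 47.3 FPKM in the Ctrl samples and 69.0, 114 and 48.0 FPKM in the cKO samples. cKO 2 was far above the other samples, whereas cKO 3 lay between Ctrl 3 and Ctrl 1. The Ctrl mean was 47.7 ± 10.9 and the cKO mean 77.1 ± 33.9 FPKM (SD over 3 samples each). *Lyz2* had the largest log2 fold change of the 10 genes, 0.62 (95% interval −0.11 to 1.34, limma adjusted p = 0.388), and without cKO 2 it was 0.29. In limma voom the fold was 1.55 with a 95% interval of 1.01 to 2.38, an unadjusted p of 0.046 and an adjusted p of 0.284. Between 928 and 2512 reads lay behind each value, at which counting contributes at most 3.28%, against a variation between cKO samples of 44.0%. *Lyz1*, the intestinal lysozyme that shared 15.4% of the 50-base stretches of *Lyz2*, was at 0.256 FPKM or less in every sample.

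The last pair of genes encodes chains of C1q, the recognition molecule of the classical complement pathway, which macrophages produce. *C1qa* (ENSMUSG00000036887; chromosome 4, 136895917 to 136898803, − strand) measured 21.2, 15.3 and 25.8 FPKM in the Ctrl samples and 22.8, 19.2 and 20.7 FPKM in the cKO samples. All cKO values lay inside the Ctrl range, whose ends were Ctrl 2 and Ctrl 3. The log2 fold change was 0.03 (95% interval −0.38 to 0.45, limma adjusted p = 0.941). *C1qb* (ENSMUSG00000036905; chromosome 4, 136880129 to 136886187, − strand) measured 18.5, 14.9 and 17.2 FPKM in the Ctrl samples and 22.1, 20.4 and 17.1 FPKM in the cKO samples. cKO 1 and cKO 2 were above the Ctrl range and cKO 3 inside it, and the log2 fold change was 0.22 (95% interval −0.07 to 0.51, limma adjusted p = 0.426). *C1qc*, the gene of the remaining chain, lies between *C1qb* and *C1qa* on the same strand, from 136889804 to 136893065. *C1qc* measured 11.5, 7.996 and 10.1 FPKM in the Ctrl samples and 11.5, 9.02 and 8.18 FPKM in the cKO samples. Its log2 fold change was −0.04 (limma adjusted p = 0.928), and the groups overlapped as they did for the other chains.

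The intervals limit how large a change these data leave room for. From the recovered reads, the estimated folds of the 10 genes ran from 0.826 for *Mrc1* to 1.55 for *Lyz2*. The upper end of the 95% interval was below a fold of 1.5 for 6 genes and below 2 for 8. The 2 genes whose interval reached past a fold of 2 were *Lyz2* (up to 2.38) and *Fcgr3* (up to 2.15). *Cd68* had an upper limit of 1.58 and *Cd14* one of 1.79. The lowest upper limits were those of *Mrc1*, at 1.02, and *Csf1r*, at 1.18.

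**Figure D2:**
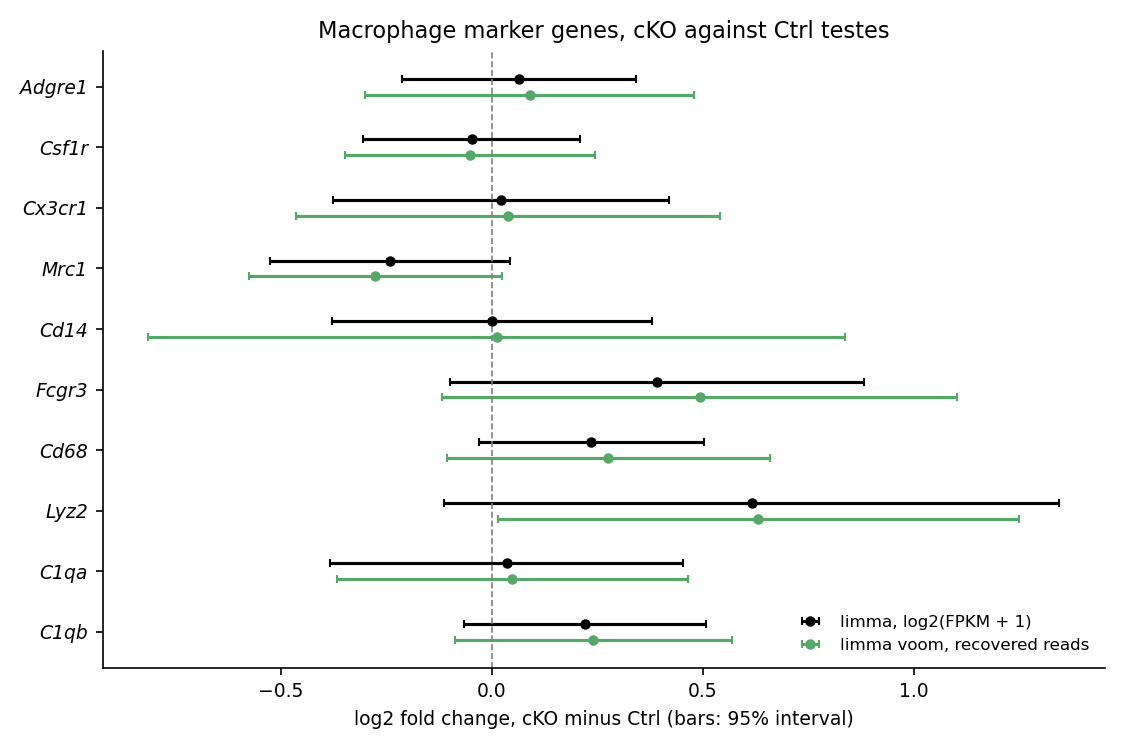
Log2 fold change of each macrophage marker gene, cKO minus Ctrl, with its 95% interval. Black gives limma on log2(FPKM + 1) and green gives limma voom on recovered reads. All intervals include 0 except the voom interval of Lyz2, which in fold runs from 1.01 to 2.38.

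The levels of the 10 genes differed from each other far more than between the groups. On the FPKM scale, which is per length, the mean over the 6 samples ran from 62.4 for *Lyz2* through 20.8 for *C1qa*, 18.4 for *C1qb*, 7.81 for *Cd68*, 6.15 for *Mrc1*, 5.24 for *Csf1r*, 3.87 for *Fcgr3*, 3.07 for *Adgre1* and 2.35 for *Cx3cr1* to 0.891 for *Cd14*. *Lyz2* was above *C1qa*, *C1qb* above *Cd68* and *Cx3cr1* above *Cd14* in 6 of 6 samples. The other neighbours in this order kept it in 5 of 6 samples. The log2 difference between the FPKM levels of *C1qb* and *Cd68* was 1.23 ± 0.059 (SD, n = 6), the smallest SD of the neighbouring pairs. The SD of the other pairs ran from 0.209 to 0.628. The pair was picked for its small SD, and counting alone gives an error of up to 5.90% for *C1qb* and 8.25% for *Cd68*.

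Each sample was next described across all 10 genes, with each gene scaled to its Ctrl mean. The mean over the genes came to 104%, 88.7% and 107% for the Ctrl samples and to 120%, 125% and 94.6% for the cKO samples. By this mean, cKO 1 and cKO 2 were above all Ctrl samples and cKO 3 was below Ctrl 1 and Ctrl 3. The groups averaged 100 ± 9.91% and 113 ± 16.1% (SD, n = 3 each), and without *Lyz2* the cKO mean was 108 ± 12.0%. The median over the genes came to 105.1%, 89.2% and 108% for the Ctrl samples. For the cKO samples the median was 121%, 104.9% and 96.8%, so by the median only cKO 1 was above all Ctrl samples. *Lyz2* made up 61.3% of the summed FPKM of the 10 genes in cKO 2 and between 39.1% and 47.3% in the other 5 samples. Ctrl 2 held the lowest value of 5 of the 10 genes and the highest value of none.

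The same scaling was applied to markers of the other testis cells. The 8 Leydig cell markers averaged 92.7%, 89.8% and 118% for the Ctrl samples against 139%, 122% and 125% for the cKO samples, so every cKO sample was above every Ctrl sample. The 8 endothelial markers averaged between 98.0% and 103% in Ctrl and reached 129%, 107% and 143% in the cKO samples, again without overlap. cKO 3, the cKO sample with the lowest macrophage marker level, had the highest endothelial level. The 12 Sertoli cell markers averaged 84.7% to 108% in Ctrl and 88.0% to 94.8% in cKO samples, and 5 of them were lower and 1 higher in cKO testes without overlap. The 6 peritubular myoid markers averaged 97.4% to 102% in Ctrl samples and 85.7%, 72.1% and 106% in the cKO samples, and 3 were lower and 1 higher without overlap. Germ-cell markers averaged 29.7%, 42.8% and 32.7% of the Ctrl mean in cKO 1, 2 and 3. A common scale per sample was then formed from 34 markers of Leydig, endothelial, Sertoli and peritubular myoid cells, whose levels thus did not move together. With each library scaled to it, 5 of the 10 macrophage genes were above 0, with a median log2 fold change of 0.0097, whereas the median of all tested genes moved to −0.04. FPKM are shares of each library, and the part that the reduced germ-cell RNA has in the level of the macrophage genes was not tested beyond this scaling.

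**Figure D3:**
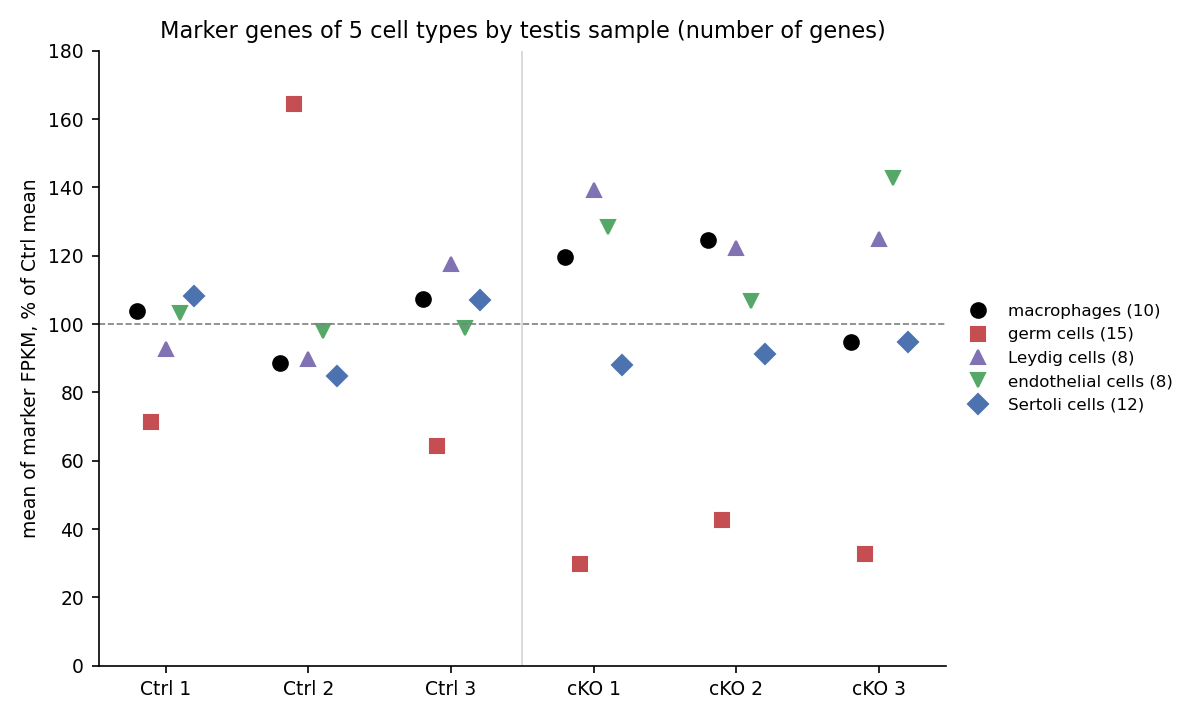
Mean marker level of 5 testis cell types in each sample, with every gene scaled to its Ctrl mean (100%, dashed line) and the number of genes in brackets. The macrophage genes lie between 88.7% and 125%, whereas the germ-cell markers lie between 29.7% and 42.8% in cKO samples and reach 164% in Ctrl 2.

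Leaving out single libraries showed how far the pattern rested on them. Without cKO 3, 4 genes, *Cd68*, *Lyz2*, *Fcgr3* and *C1qb*, were higher in cKO testes at an unadjusted p under 0.05, where 5.87% of all 16206 genes were higher and 8.55% lower in the same fit, and 0 of 10 passed the adjusted threshold (limma adjusted p = 0.324, 0.276, 0.234 and 0.311 in that order). Without Ctrl 2, the Ctrl library with the high germ-cell markers, 6 of the 10 genes were above 0 and the median log2 fold change was 0.03, whereas without Ctrl 3 it was 0.19. Without cKO 2, the log2 fold change of *Fcgr3* was 0.23.

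Ratios within a sample do not depend on how the library was scaled, and 6 were compared by an exact two-sided permutation test, for which 3 against 3 samples cannot give a p below 0.1. The ratio of *Mrc1* to *Csf1r* came to 1.39, 1.31 and 1.104 for the Ctrl samples and to 0.989, 1.27 and 1.001 for the cKO samples (exact p = 0.2, adjusted over the 6 ratios 0.48). cKO 2 exceeded Ctrl 3, so the groups overlapped. The ratio of *Fcgr3* to *Csf1r* averaged 0.598 ± 0.115 in Ctrl and 0.891 ± 0.282 in cKO testes (SD, n = 3 each, exact p = 0.3, adjusted 0.48). *Adgre1* to *Csf1r* averaged 0.559 ± 0.049 and 0.617 ± 0.070 (exact p = 0.4, n = 3 each), and *Lyz2* to *Cd68* averaged 6.68 ± 0.951 and 8.90 ± 3.35 (exact p = 0.4, n = 3 each). The ratio of *C1qc* to *C1qb* came to 0.621, 0.536 and 0.587 for the Ctrl samples and to 0.522, 0.442 and 0.479 for the cKO samples. It was the only ratio without overlap between the groups, at the smallest p the design allows (exact p = 0.1, adjusted 0.48). *C1qa* to *C1qb* averaged 1.22 ± 0.244 in Ctrl and 1.06 ± 0.137 in cKO testes (exact p = 0.5, n = 3 each).

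The ligands and partners of the 10 proteins were then compared. *Csf1*, the ligand of the CSF1 receptor, measured 3.76, 2.70 and 3.52 FPKM in the Ctrl samples and 3.01, 3.34 and 3.71 FPKM in the cKO samples (log2 fold change 0.02, limma adjusted p = 0.965). *Il34*, the second ligand, lay between 0.523 and 0.973 FPKM (log2 fold change 0.11, limma adjusted p = 0.763). Neither ligand nor receptor separated the groups. *Cx3cl1* encodes fractalkine, the ligand of CX3CR1. *Cx3cl1* measured 8.87, 6.15 and 9.43 FPKM in the Ctrl samples and 12.8, 14.98 and 12.6 FPKM in the cKO samples, so every cKO sample was above every Ctrl sample. Its log2 fold change of 0.68 (95% interval 0.31 to 1.04) had an unadjusted p of 0.003 but an adjusted p of 0.135 in limma, and over 16 alternatives the adjusted p ran from 0.060 to 0.338. The level of its receptor gene *Cx3cr1* overlapped between the groups, as given above.

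The signalling partners of the receptors were examined next. *Fcer1g*, the signalling chain that FCGR3 requires, was between 10.5 and 15.6 FPKM (log2 fold change 0.03), and *Tyrobp*, the adaptor DAP12, was between 10.2 and 16.7 FPKM (log2 fold change 0.13), with overlap between the groups for both. *Tlr4*, the receptor that CD14 serves, was at 0.256 to 0.595 FPKM and below the filter. *Ly96*, which encodes the MD-2 subunit of that receptor, had a log2 fold change of 0.19 (limma adjusted p = 0.542).

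*Spi1* encodes PU.1, the transcription factor that directs the macrophage fate and many macrophage genes. *Spi1* measured 1.17, 0.974 and 1.19 FPKM in the Ctrl samples and 1.44, 1.38 and 1.61 FPKM in the cKO samples. All cKO samples were above all Ctrl samples, with a log2 fold change of 0.23 that did not pass the threshold (95% interval −0.04 to 0.50, limma adjusted p = 0.382). At this low level log2(FPKM + 1) understates a change, and in limma voom the log2 fold change was 0.42 (adjusted p = 0.400). Promoter sequence from RefSeq (GRCm38.p6, 250 bases before to 50 after the start) was at hand for 6 of the 10 marker genes. It was searched on both strands for GAGGAA, the core of the PU.1 motif, which was present in 4 of the 6 genes and in 28.3% of 32851 promoters. The core with GT directly after it was present in 0 of the 6 genes and in 3.20% of all promoters. The windows below, 30 bases each on the strand of the gene, show 1 core per gene in capitals, which reads TTCCTC where it lies on the opposite strand. A match is only a match of letters.
C1qb, chr4:136886213-136886242 (− strand): gcagcaggatggGAGGAAcagaggggtgat
Cd68, chr11:69666378-69666407 (− strand): tttcttaccaatGAGGAAagggcttcccat
Mrc1, chr2:14229367-14229396 (+ strand): aaaagggacagcTTCCTCtgtcctcctttt
Fcgr3, chr1:171059392-171059421 (− strand): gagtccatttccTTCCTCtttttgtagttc

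**Figure D4:**
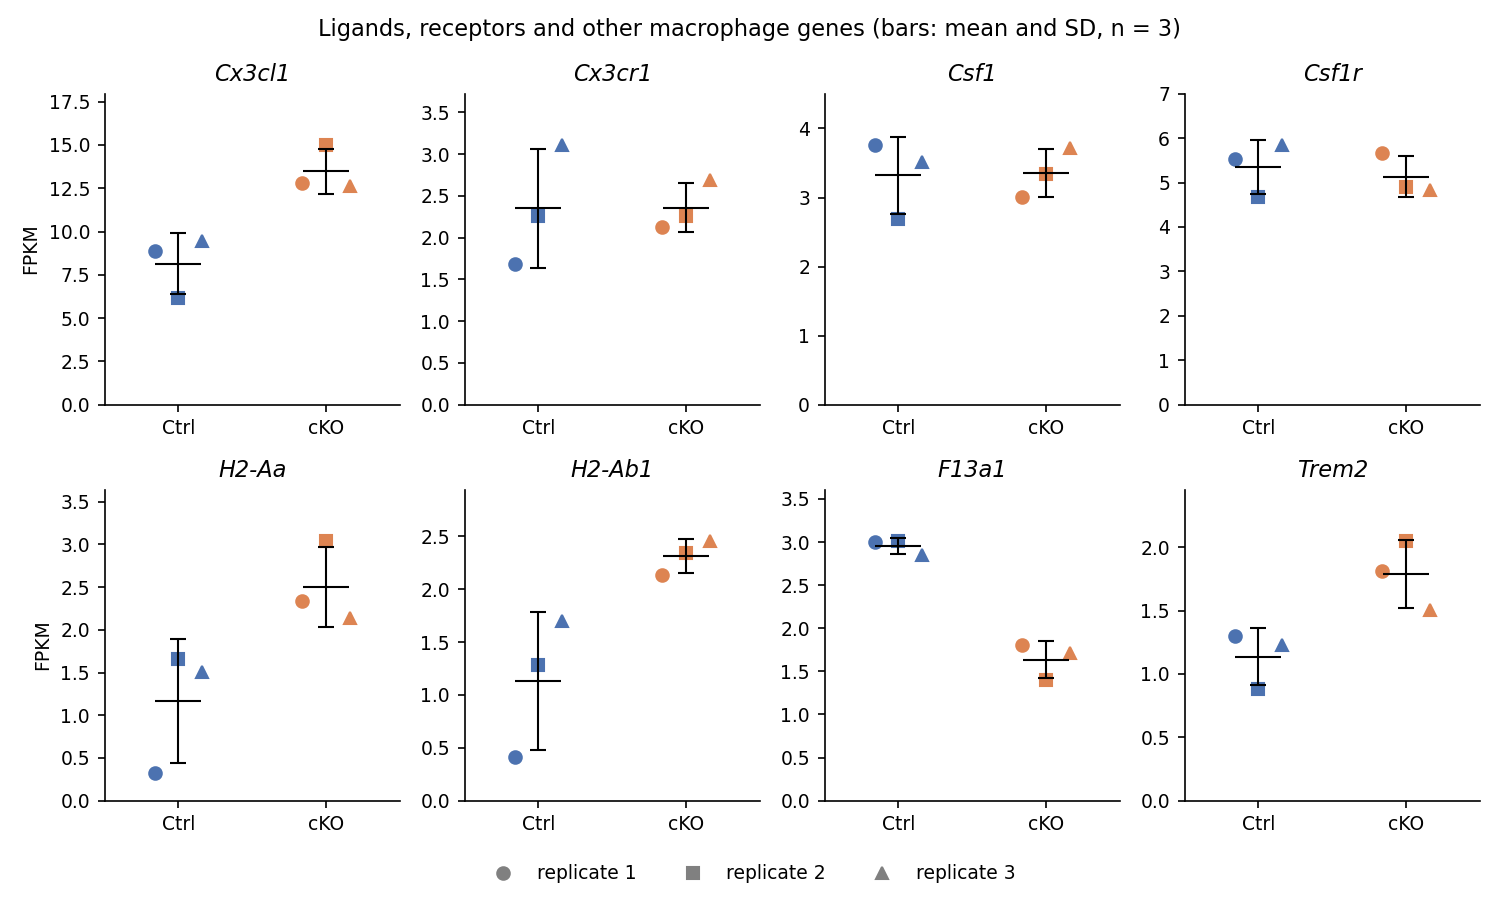
FPKM of ligands, receptors and other macrophage genes in each sample, with points shaped by replicate number and black bars for the mean and SD (n = 3 per group). Cx3cl1, H2-Aa, H2-Ab1 and Trem2 are higher in all cKO samples, F13a1 is lower in all cKO samples, and Cx3cr1, Csf1 and Csf1r overlap.

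Other genes of the macrophage lineage were taken from 3 lists, myeloid transcription factors, other macrophage identity genes, and tissue-resident and scavenger receptors. Of their 42 genes, 29 were tested and 0 passed the adjusted threshold in limma. Their groups did not overlap for 5 genes higher in cKO testes (17.2%, beside 10.3% of all tested genes) and 1 lower (3.45%, beside 12.8%). Of the 29, 21 had a log2 fold change above 0 (72.4%, beside 50.5%), with a median of 0.12. Without Ctrl 2, 16 of the 29 were above 0 and the median was 0.05. In that fit the median of the 16 identity genes among them was −0.007, with 8 of them above 0. The higher genes included *Spi1*, *Cebpa*, *Ctss* and *Trem2*. *Cebpa*, a transcription factor of myeloid cells that other tissues also express, measured 25.8, 14.2 and 31.1 FPKM in the Ctrl samples and 39.2, 38.0 and 40.7 FPKM in the cKO samples (limma adjusted p = 0.226). *Ctss*, which encodes the lysosomal protease cathepsin S, measured 9.64, 6.46 and 9.59 FPKM in the Ctrl samples and 12.7, 12.3 and 10.6 FPKM in the cKO samples (limma adjusted p = 0.251). *Trem2*, which encodes a lipid-sensing receptor, had a log2 fold change of 0.38 (limma adjusted p = 0.258).

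The 1 lower gene was *F13a1*, which encodes the A subunit of coagulation factor XIII and is carried by tissue-resident macrophages. *F13a1* measured 2.998, 3.01 and 2.85 FPKM in the Ctrl samples and 1.80, 1.40 and 1.71 FPKM in the cKO samples. The replicates lay close together and the groups far apart, with a log2 fold change of −0.59 (95% interval −0.84 to −0.33, limma adjusted p = 0.102). It passed the threshold in 2 of 16 alternatives, protein-coding genes alone (adjusted p = 0.037) and limma voom (adjusted p = 0.040), and the adjusted p reached 0.293 in the others. *Lyve1* and *Stab1*, scavenger receptors that share with *Mrc1* an expression in resident macrophages and in vessels, overlapped between the groups (log2 fold change −0.05 and −0.04). Several defining genes were low and below the filter of 0.5 FPKM. *Cd163* reached at most 0.260 FPKM, *Timd4* 0.193, *Vsig4* 0.257 and *Itgam* 0.283. The leukocyte gene *Ptprc* lay between 0.155 and 0.275 FPKM.

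The genes of antigen presentation by MHC class II mark a subset of macrophages in the adult testis, as well as dendritic and B cells. Their median log2 fold change was 0.60 over 5 tested genes. *H2-Aa* measured 0.330, 1.65 and 1.51 FPKM in the Ctrl samples and 2.34, 3.04 and 2.14 FPKM in the cKO samples. *H2-Ab1* measured 0.415, 1.28 and 1.69 FPKM in the Ctrl samples and 2.14, 2.34 and 2.45 FPKM in the cKO samples. Both were without overlap, with Ctrl 1 far below the other Ctrl samples, and neither passed the threshold (limma adjusted p = 0.261 and 0.239). Without Ctrl 1 the median of the 5 genes was 0.39. *Cd74*, the invariant chain, overlapped between the groups with a log2 fold change of 0.17.

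Markers of other immune cells were examined as well, since several of these cells carry the same transcripts. Of 6 monocyte markers 2 were tested. *Plac8*, also expressed outside monocytes, measured 5.28, 5.77 and 5.49 FPKM in the Ctrl samples and 6.63, 6.47 and 6.30 FPKM in the cKO samples, without overlap (log2 fold change 0.20, limma adjusted p = 0.305), and *Ace* overlapped. *Ccr2*, the receptor by which monocytes leave the bone marrow, was below the filter, at 0.265, 0.210 and 0.196 FPKM in Ctrl samples against 0.498, 0.531 and 0.555 FPKM in cKO samples. Of the neutrophil genes, 4 of 10 were tested, with a median log2 fold change of 0.51, which was 0.12 without Ctrl 2, 0.29 without Ctrl 1 and 1.11 without Ctrl 3, where 1 gene passed the adjusted threshold in limma. *S100a8*, with the largest log2 fold change among them (1.21, limma adjusted p = 0.271), measured 2.05, 1.59 and 8.34 FPKM in the Ctrl samples and 8.33, 7.51 and 10.4 FPKM in the cKO samples, so that Ctrl 3 was as high as cKO 1. The neutrophil markers summed to 5.83 to 32.0 FPKM in Ctrl and 22.9 to 25.9 FPKM in cKO samples, with *Ly6g* at 0 in 3 of the 6 libraries. *Lyz2* is also a neutrophil gene, and the part of these cells in its level was not tested. For mast cells, 4 genes were tested, each with overlap and together with a median of −0.71 on the log2 scale (−1.16 without Ctrl 1, −0.42 without Ctrl 3 and −0.39 without cKO 2), and *Fcer1a* was at 0 in all 6 samples. Of the B cell genes 3 of 6 were tested, and *Cd79b* was without overlap (log2 fold change 0.33, limma adjusted p = 0.320). Dendritic cell genes had 2 of 7 members above the filter, both with overlap. T and NK cell genes had 1 of 10 members above the filter, *Lck*, at 0.511 to 1.497 FPKM.

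Functions in which macrophages take part were described in the same way. The 12 other complement genes, of which 9 were tested, had a median log2 fold change of 0.02, which ran from −0.11 to 0.01 with a sample left out, and 1 gene was higher and 1 lower without overlap. The lower gene was *C2* (−0.31, limma adjusted p = 0.385). All 15 tested genes for the engulfment of dying cells had a log2 fold change above 0 (beside 50.5% of all tested genes), with a median of 0.13. Of the 15, 1 was higher at an unadjusted p under 0.05 in limma, beside 6.6% of all tested genes. The groups did not overlap for 2 of the 15, *Pros1* (0.30, limma adjusted p = 0.217) and *Gulp1* (0.23, limma adjusted p = 0.320). Of all tested genes, 10.3% were higher without overlap. Scaled to the somatic markers, 13 of these 15 were above 0, and without Ctrl 2 their median was 0.05. *Mertk*, an engulfment receptor of macrophages, was between 3.39 and 5.09 FPKM and overlapped. *Axl* and *Gas6*, which other testis cells make as well, reached 126 and 168 FPKM. Which cells of the testis made the transcripts of this list was not tested. Of the genes for sensing lipopolysaccharide, *Tlr2* (0.28, limma adjusted p = 0.282) and *Irak4* (0.21, limma adjusted p = 0.410) were higher without overlap. The cytokine genes *Il1b*, *Tnf*, *Il6* and *Nos2* were at 0.373 FPKM or less in every sample, and *Il10* was at 0 in all 6. *Cxcl12*, a chemokine gene of stromal cells, measured 30.9, 23.8 and 35.02 FPKM in the Ctrl samples and 44.9, 39.7 and 46.9 FPKM in the cKO samples (log2 fold change 0.55, limma adjusted p = 0.166).

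Over all 16 lists of immune, complement, engulfment and signalling genes, 89 of 152 genes were tested and 0 passed the adjusted threshold in limma. At an unadjusted p under 0.05, 14 were higher in cKO testes (15.7%, beside 6.6% of all tested genes) and 1 was lower (1.12%, beside 9.31%). The groups did not overlap for 16 higher genes (18.0%, beside 10.3%) and 2 lower genes (2.25%, beside 12.8%). With a sample left out, the share higher at an unadjusted p under 0.05 ran from 8.99% without cKO 1 or cKO 2 to 16.9% without Ctrl 3, while that of all tested genes ran from 4.59% to 6.51%. The share lower ran from 1.12% to 5.62%, the highest without Ctrl 1, beside 6.22% to 9.21% of all tested genes. Scaled to the somatic markers, 9 of the 89 genes were higher and 1 lower at that p. The lists were chosen with earlier results known, and these counts carry no test.

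**Figure D5:**
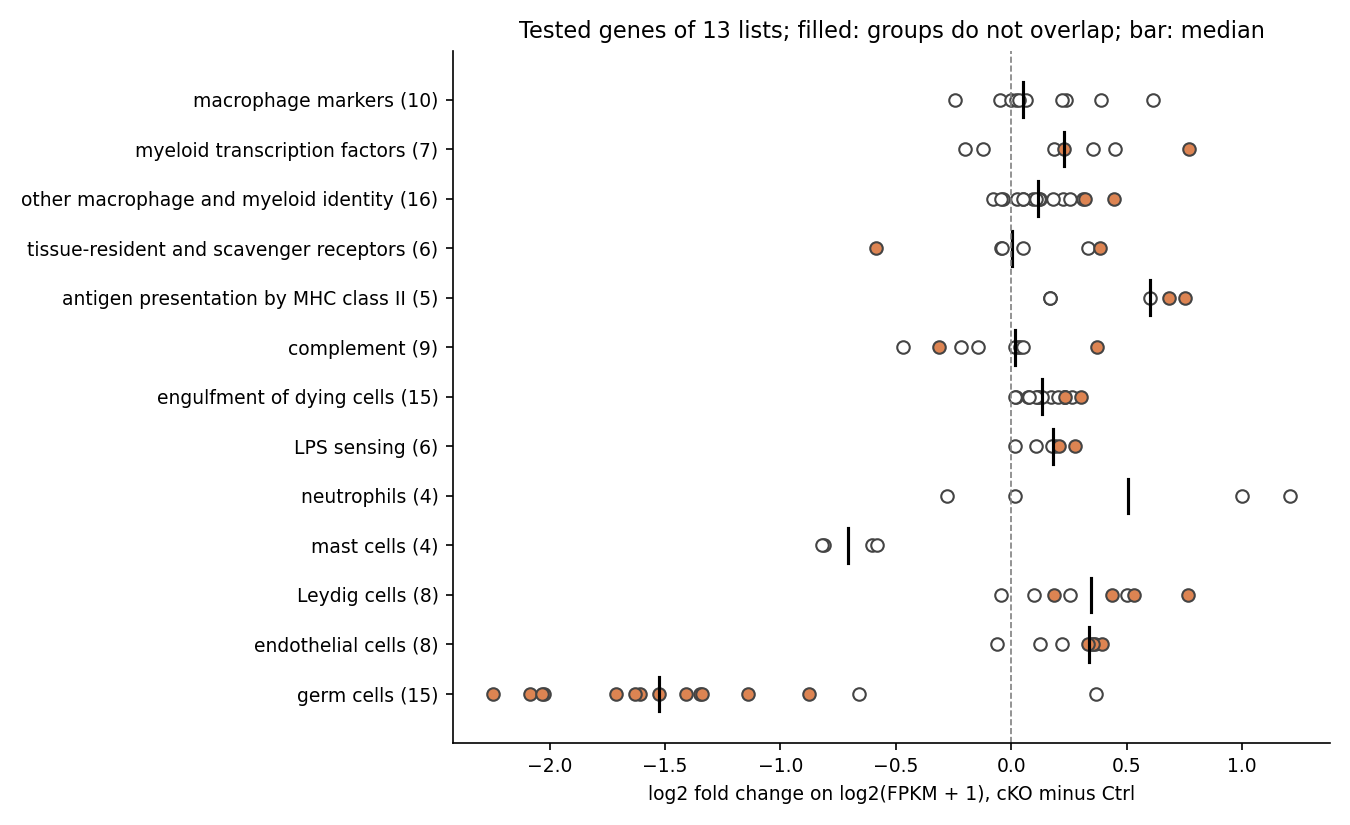
Log2 fold change of the tested genes of 13 lists, cKO minus Ctrl, on log2(FPKM + 1), with the number of tested genes in brackets. Each point is a gene, filled where the 3 cKO values do not overlap the 3 Ctrl values, and the bar is the median. The macrophage markers centre at 0.05 with no filled point, and the germ cells at −1.52 with 13.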

How the data were processed

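Total RNA of 5 dpp testes was poly-T selected, sequenced as paired-end reads and, per the methods and processing notes of the authors, aligned to mm10 with HISAT2 2.0.5 and counted per gene with featureCounts. The authors deposited FPKM per gene and sample, computed from gene length and read count, for 54532 genes with GRCm38 coordinates. The annotation release and strand setting were not given in the sources used here. FPKM were multiplied by length and divided by a step fitted for each sample. The result was a whole number, to within 0.01, for 100% of nonzero values in every sample. These recovered reads were used where stated.

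Groups and replicate numbers came from the sample titles. Limma 3.58.1 (R 4.3.3) was fitted to log2(FPKM + 1) of the 16206 genes averaging 0.5 FPKM or more, with no covariate, a mean-variance trend, two-sided p-values and Benjamini-Hochberg adjustment over all genes (threshold 0.05). Log2(FPKM + 1) understates changes of low genes. Voom was run on the reads as a second test. DESeq2, the count test with which the paper reported genes both lower and higher in cKO testes, was not run here. Intervals are 95% intervals of the fits. Without molecular identifiers reads are not separate molecules, so the floors speak of counting error alone. Reads were simulated with 200 of the 16206 genes changed by 2 on the log2 scale. Each gene was given the median spread of genes at a similar level, which leaves out differences in spread between such genes. The recovery may therefore not hold for the real samples. Limma recovered 91% of these genes, with 6.67% of 195 calls false, and voom 96%, with 4.95% of 202 calls false. The largest log2 fold change of a macrophage marker gene was 0.62, and the recovery of changes of that size was not simulated. In the real samples limma called 0 of the 16206 genes. Alternatives changed 1 choice each: pseudocount 0.1, a filter at 1 FPKM, no filter, TPM, quantile normalization, undoing the scaling between libraries that the FPKM carry, scaling to somatic markers, protein-coding genes, voom, the replicate number as a block, and leaving out each sample.

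The members and all gene lists were chosen with earlier results of these data known. Named were the 10 members, fixed partners, list genes whose groups did not overlap (at most 4 per list, by log2 fold change) and defining markers near 0, some of which are not reported here. Other list genes given as examples (*Ace*, *S100a8*, *Lck*, *Lyve1*, *Stab1*, *Cd74*, *Mertk*, *Axl*, *Gas6*) were chosen after their values were seen. Shared stretches are 50-base sequences of the annotated transcripts (GENCODE mouse release M21) found in another gene.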

Additional observations from a re-analysis of the deposited data

How the results depend on the processing

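Of the 10 macrophage genes, 0 passed the adjusted threshold in limma or limma voom under any of the 16 alternatives, in either direction, except that *Cd14* had no value with the filter at 1 FPKM. At an unadjusted p under 0.05, 1 gene was higher with voom and 4 without cKO replicate 3 (where 5.87% of all genes were higher), and leaving out a sample gave 0 to 4. The median log2 fold change ran from 0.03 to 0.19 with a sample left out. Among values near 0 the sign changed. *Csf1r* was at 0.0085 without Ctrl 3 (range with a sample left out −0.13 to 0.0085). *Cd14* was at −0.00056 with library scaling undone and −0.021 with scaling to somatic markers (−0.10 to 0.11 with a sample left out). With scaling to somatic markers, *Cx3cr1* was at −0.013, *C1qa* at −0.011, *Csf1* at −0.019 and *Fcer1g* at −0.016. With a sample left out, *Cx3cr1* ran from −0.13 to 0.18, *C1qa* from −0.16 to 0.20, *C1qc* from −0.17 to 0.068, *Csf1* from −0.093 to 0.089, *Fcer1g* from −0.11 to 0.16 and *Tyrobp* from −0.025 to 0.27. The cause of these changes was not tested. *Srsf1* passed the threshold with TPM (−0.86, adjusted p 0.036), protein-coding genes (−0.85, 0.016) and voom (−0.86, 0.025). Genes of the other lists past the threshold were 0 in both directions, but 10 lower with protein-coding genes, 6 lower with voom, 0 to 2 lower and 0 to 1 higher with a sample left out (2 lower without Ctrl 2, 1 higher without Ctrl 3). Protein-coding genes alone mean fewer genes tested.

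Deviations of same-numbered samples correlated weakly, at 0.066, 0.016 and 0.088, which does not settle whether the replicate numbers pair the samples. A fit with the replicate number as a block called 0.0864% of all tested genes higher and 0.518% lower. Without the block, 0% were called in either direction. With the replicate block, 0 of the 10 genes passed, 6 genes of the other lists were lower, and *Srsf1* was at −0.85 (adjusted p 0.033).

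Depth limits *Cd14* (17 to 30 reads per sample) and the list genes under the filter. For *Lyz2* and *Fcgr3* the spread between samples, not depth, sets the width of the interval.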
